A study of Homo sapiens with 12 samples.

Results

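Interferon-stimulated genes and the genes of class I antigen presentation were measured by RNA sequencing in 22Rv1 cells, an established human prostate carcinoma line, after depletion of CENPA, the histone H3 variant that marks centromeres. The set was a fixed list of 58 symbols, and its members were the rows of the deposited expression table that carry one of them. Of the 58 listed genes, 42 had a row among the 14828 genes of the table. IRF9, OAS1, OAS2, IFIT1, IFIT3, IFITM1, IFI44L, IFI27, TRIM22, IFI16, SAMD9, SAMD9L, LGALS3BP, UBE2L6, PSMB9 and TAP2 (16 genes) were not analysed here. MX2 had a row but a mean log2 RPKM under the minimum of -3 set for testing, so 41 members entered the tests, among 14624 genes.

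The cells carried a nontargeting shRNA (shNT) or one of 2 shRNAs against CENPA (shCENPA1 and shCENPA2), each delivered by lentivirus in the doxycycline-inducible pTRIPZ vector. All 3 groups, the control included, received doxycycline at 2 µg/ml for 72 h, so what they share cannot be read from a comparison between them. Each group had 2 libraries, and each library was run in 2 lanes that were averaged. Replicate 1 and replicate 2 below name the 2 libraries of a group and not the runs, which the labels also number as replicates. The labels do not say that the libraries came from separate cultures, so the p-values measure the spread between these libraries, which may be technical. Both shRNA groups were set against the same shNT libraries.

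Type I and type III interferons bind receptors at the cell surface, and the kinases JAK1 and TYK2 then phosphorylate STAT proteins, which join IRF9 and bind the interferon-stimulated response element (ISRE) in the promoters of target genes. The targets include sensors of viral RNA, transcription factors that amplify the response, and effectors that block viral entry, translation and replication. Interferon also raises the proteins that cut, transport and display peptides on class I HLA molecules. Many of these genes have a basal level of expression in epithelial cells without added interferon.

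The libraries held 79172294 to 133074655 reads on genes, recovered from the steps of the deposited values. CENPA itself was measured at a log2 RPKM of 2.46 and 2.18 with shNT, 0.50 and 0.58 with shCENPA1, and -0.47 and -0.41 with shCENPA2. It fell with both shRNAs (log2 fold changes -1.78 and -2.76, adjusted p = 0.000287 and 1.13e-05, limma), and the shCENPA2 libraries lay below the shCENPA1 libraries (difference -0.98, adjusted p = 0.0209). All 8 prostate luminal markers used, with HOXB13, KLK3 and FOLH1 among them, had a row. With shCENPA2 KLK3, KLK2 and TMPRSS2 were lower (log2 fold changes -1.64, -1.05 and -0.79) and HOXB13 and FOLH1 higher (0.47 and 0.52), and with shCENPA1 0 of the 8 passed in limma, 2 were higher and 1 lower at an unadjusted p under 0.05, and 2 were higher in limma-voom. Their median log2 fold change was 0.09 and -0.19 with shCENPA1 and shCENPA2, and their summed level was 574 to 611 RPKM with shNT, 676 to 719 with shCENPA1 and 711 to 739 with shCENPA2. Of 12 leukocyte markers used only CD4 had a row, at 0.511 to 0.64 RPKM with shNT, 0.243 to 0.306 with shCENPA1 and 0.118 to 0.237 with shCENPA2.

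The ISRE is the sequence through which the pathway is best known to act, and its core was searched in the promoters of the members as GAAA followed after any 2 bases by GAAA, on both strands, from 250 bases before to 50 bases after each RefSeq gene start (build GRCh38.p14). A RefSeq promoter was held for 46 of the 58 listed genes, and 32 of these had a row. The core was found in 30 of the 46 (65.2%) and in 22 of the 32 (68.8%), against 1195 of 27305 gene symbols (4.38%) with a promoter of the same length. The core of the gamma-activated site, TTCNNNGAA, which dimers of STAT proteins bind, was found in 12 of the 46 (26.1%) and 8 of the 32 (25.0%), against 9.38% of all symbols. A match describes the letters in the window and not a bound site. The 30-base windows around 1 match each are printed for the 5 matched members that passed the test with either shRNA and for ISG15, MX1, IFIT5 and B2M, which did not pass, so that they can be set beside the changes. Capitals mark the bases of every match, including the part of a neighbouring match that falls in the window, and each sequence is written 5′ to 3′ on the strand of the gene.
IFI44 (chr1:78649761-78649790, plus strand, -28 to 2 from the start): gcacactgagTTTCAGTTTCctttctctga
IFI6 (chr1:27672266-27672295, minus strand, -103 to -74): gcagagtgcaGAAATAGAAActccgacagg
OAS3 (chr12:112938452-112938481, plus strand, -22 to 8): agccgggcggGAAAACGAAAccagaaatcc
IFITM3 (chr11:320876-320905, minus strand, -45 to -16): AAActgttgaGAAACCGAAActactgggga
BST2 (chr19:17405735-17405764, minus strand, -134 to -105): ctggGAAACTGAAACTGAAAacctaattaa
ISG15 (chr1:1013380-1013409, plus strand, -117 to -88): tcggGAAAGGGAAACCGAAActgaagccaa
MX1 (chr21:41420559-41420588, plus strand, 2 to 31): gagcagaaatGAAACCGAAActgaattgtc
IFIT5 (chr10:89414554-89414583, plus strand, -14 to 16): ATTTCttaagTTTCAGTTTCtgagcgctcg
B2M (chr15:44711369-44711398, plus strand, -148 to -119): ctaaGAAAAGGAAACTGAAAacgggaaagt

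The members did not move as a block. A member passed the test where its adjusted p was under 0.05 (limma, Benjamini-Hochberg over all 14624 genes tested), and was called 2-fold changed where its log2 fold change was also beyond 1 in either direction. With shCENPA1, 7 of the 41 members were higher (17.1%) and 1 was lower (2.44%), where 2.69% and 4.45% of all genes tested were higher and lower. With shCENPA2, 6 of 41 were higher (14.6%) and 4 were lower (9.76%), where 8.05% and 10.5% of all genes were. At the 2-fold threshold 5 members were higher and 1 lower with shCENPA1, against 0.821% and 1.83% of all genes, and 4 were higher and 3 lower with shCENPA2, against 1.68% and 4.45%. The median log2 fold change of the 41 members was 0.15 with shCENPA1 and -0.02 with shCENPA2, beside 0.003 and 0.01 for all genes.

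The share of higher members rests in part on how the table was filtered. The third-highest run of every gene in the deposited table reached 1.006 CPM (reads scaled to the library size) or more, and OASL and IFI44 reached 1 CPM in 0 of the 4 shNT runs and IFIT2 and IFI6 in 1. At their shNT level OASL and IFI44 would not have been in the table. A higher level in other libraries was thus a condition of their being measured. For IFIT2 and IFI6, with 1 of the 4 shNT runs at 1 CPM, this cannot be told. The counts and medians over the measured members are a description and not support for a rise of the set. DHX58, HLA-B and HLA-C, the other members that were higher with shCENPA1, reached 1 CPM in all 4 shNT runs.

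**Figure D1:**
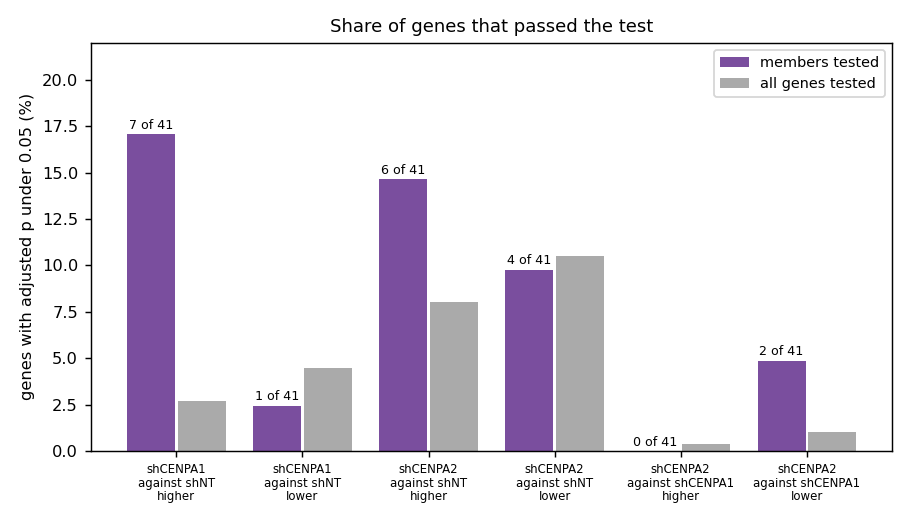
The percentage of genes with an adjusted p under 0.05 is plotted for the 41 members tested (purple, with counts above the bars) and for all 14624 genes tested (grey), for each comparison and direction. The largest gap is for genes higher with shCENPA1, 17.1% of the members against 2.69% of all genes. Among the 7 members behind that bar, OASL and IFI44 would not have been in the table at their shNT level.

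**Figure D2:**
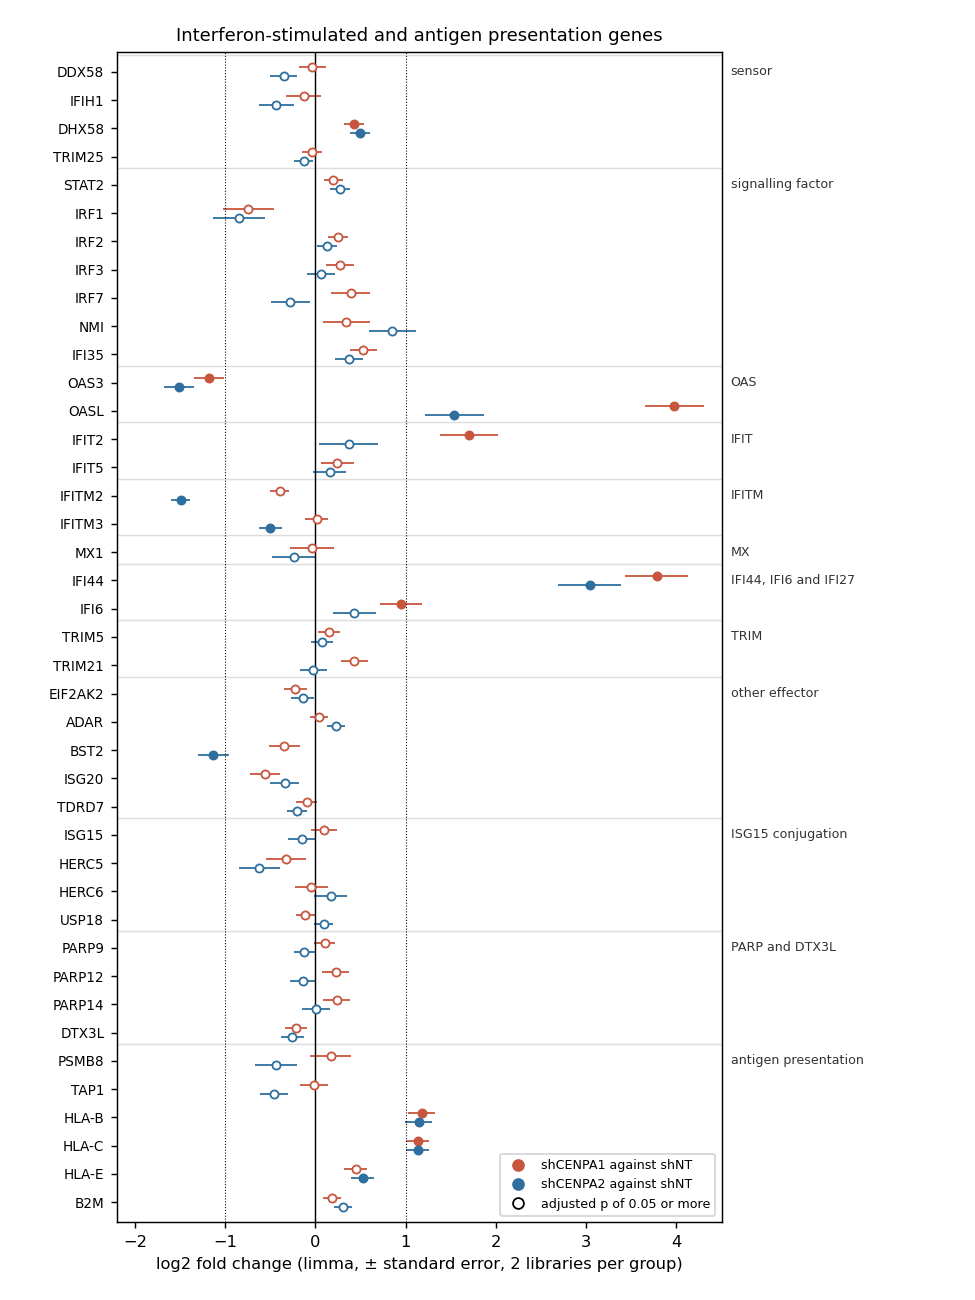
Log2 fold changes against shNT are plotted with standard errors for each of the 41 members, grouped by function, with shCENPA1 in red and shCENPA2 in blue. Filled points had an adjusted p under 0.05. OASL and IFI44 lie farthest to the right, OAS3 and IFITM2 farthest to the left, and 29 members have open points for both shRNAs.

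The class I heavy chains HLA-B and HLA-C, which present peptides from inside the cell to CD8 T cells, were higher with both shRNAs. HLA-B (chr6:31353872-31367067, GRCh38, GENCODE 44) was at a log2 RPKM of 0.90 and 0.92 with shNT, against 1.98 and 2.19 with shCENPA1, and 2.20 and 1.92 with shCENPA2. HLA-C (chr6:31268749-31272130) was at 3.32 and 3.14 with shNT, 4.24 and 4.49 with shCENPA1, and 4.49 and 4.22 with shCENPA2. For both genes all 4 knockdown libraries lay above both shNT libraries and the knockdown groups overlapped. HLA-B differed from shNT by a log2 fold change of 1.18 with shCENPA1 and 1.14 with shCENPA2 (standard error 0.15 for each, adjusted p = 0.00134 and 0.000686). HLA-C differed by 1.14 and 1.13 (standard error 0.13, adjusted p = 0.00081 and 0.000334). The difference between the shRNAs was -0.03 ± 0.15 (SE) for HLA-B and -0.01 ± 0.13 (SE) for HLA-C, on the log2 scale. Reads of these genes can be split among near-identical HLA relatives, and how the authors' counting treated reads with several matches was not given in the sources used here.

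HLA-E, a nonclassical class I molecule read by natural killer cell receptors, moved less. Its log2 RPKM was 1.63 and 1.67 with shNT, 2.11 and 2.08 with shCENPA1, and 2.29 and 2.06 with shCENPA2, with no overlap between shNT and either knockdown group. It passed the test with shCENPA2 (log2 fold change 0.52 ± 0.13 SE, adjusted p = 0.0188), and its log2 fold change with shCENPA1 was 0.44 (adjusted p = 0.0694). Without shNT replicate 1, shNT replicate 2 or shCENPA2 replicate 1 its adjusted p with shCENPA2 was 0.138, 0.109 and 0.0711, while with shCENPA1 it was 0.0412 and 0.0404 without shCENPA2 replicate 1 and replicate 2.

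The partners of the heavy chains did not pass the test. B2M, the light chain that every class I molecule needs, was at 3.72 and 3.60 with shNT, 3.75 and 3.94 with shCENPA1 and 3.92 and 4.02 with shCENPA2 (log2 fold changes 0.18 and 0.31, adjusted p = 0.343 and 0.0705). TAP1, a subunit of the peptide transporter, was at 1.07 and 1.06, 0.98 and 1.11, and 0.49 and 0.72 in the same order (log2 fold changes -0.02 and -0.46, adjusted p = 0.964 and 0.0731). PSMB8, a catalytic subunit of the immunoproteasome, was at -0.76 and -1.001, -0.67 and -0.75, and -1.45 and -1.17 (log2 fold changes 0.17 and -0.44, adjusted p = 0.718 and 0.233). The shCENPA2 libraries thus lay above both shNT libraries for B2M and below them for TAP1 and PSMB8, with none of these differences past the threshold. B2M, TAP1 and PSMB8 hold the ISRE core in their promoters, and the 300-base windows of HLA-B and HLA-C hold neither core.

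Of the OAS family, whose members sense double-stranded RNA and, apart from OASL, make the 2-5A that activates RNase L, OASL and OAS3 were measured and moved in opposite directions. OASL (chr12:121017763-121039246), which lacks the synthetase activity of its relatives, was at a log2 RPKM of -3.86 and -3.68 with shNT, 0.21 and 0.21 with shCENPA1, and -1.82 and -2.63 with shCENPA2. The reads behind these values were 26 and 23, 328 and 420, and 83 and 76. The 3 groups did not overlap. OASL reached 1 CPM in 0 of the 4 shNT runs and in 5 of all 12 runs. A higher level in other libraries was thus a condition of its being in the table, and its differences between groups are a description. The log2 fold change was 3.98 ± 0.33 (SE) with shCENPA1 and 1.54 ± 0.33 with shCENPA2 (adjusted p = 0.000195 and 0.0105), and the difference between the shRNAs, -2.44, passed the test (adjusted p = 0.00809). With the 2 shCENPA2 and 2 shNT libraries alone the adjusted p with shCENPA2 was 0.0579, and with 1 added to the RPKM the change was 0.19 (adjusted p = 0.106). Without shCENPA1 replicate 1 or replicate 2 the adjusted p of the difference between the shRNAs was 0.101 and 0.197.

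OAS3 (chr12:112938051-112976460), which binds long double-stranded RNA, fell with both shRNAs. Its log2 RPKM was 1.94 and 2.04 with shNT, 0.94 and 0.68 with shCENPA1, and 0.60 and 0.35 with shCENPA2, so that the highest knockdown library was below the lowest shNT library. The log2 fold changes were -1.18 and -1.51 (standard error 0.16, adjusted p = 0.00229 and 0.000252), and the difference between the shRNAs was -0.33 (adjusted p = 0.425). The gene is expressed well above OASL in the control, and it is the only member that passed as lower with shCENPA1.

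IFI44 (chr1:78649796-78664078), a cytoplasmic protein induced by type I interferon, rose with both shRNAs. It was at a log2 RPKM of -2.87 and -3.72 with shNT, 0.26 and 0.72 with shCENPA1, and -0.60 and 0.09 with shCENPA2, from 31 and 13, 196 and 346, and 111 and 291 reads. All 4 knockdown libraries lay above both shNT libraries. The log2 fold changes were 3.78 and 3.04 (standard error 0.35, adjusted p = 0.000301 and 0.000386), and with 1 added to the RPKM they were 1.12 and 0.74 (adjusted p = 0.000604 and 0.00263). IFI44 reached 1 CPM in 0 of the 4 shNT runs. A higher level in other libraries was thus a condition of its being in the table, and its difference from shNT is a description. IFI6, a mitochondrial and endoplasmic reticulum protein that limits flavivirus replication, was at -0.40 and 0.34 with shNT, 0.96 and 0.87 with shCENPA1, and 0.40 and 0.41 with shCENPA2. Its log2 fold change with shCENPA1 was 0.94 ± 0.23 (SE, adjusted p = 0.0429) and with shCENPA2 0.43 (adjusted p = 0.244). The call with shCENPA1 was lost in 9 of 18 alternatives. Among these were limma-voom (adjusted p = 0.0956), limma without the trend (0.0809) and lane 8 alone (0.126). The shNT libraries of IFI6 were farther apart than either knockdown pair, and without shNT replicate 1 the change with shCENPA1 was 0.57 (adjusted p = 0.294). The adjusted p was also 0.158 and 0.211 without shCENPA1 replicate 1 and replicate 2, and 0.0517 and 0.0527 without shCENPA2 replicate 1 and replicate 2.

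Some IFIT proteins bind viral RNA that lacks a host cap or bears a 5′ triphosphate. Of the IFIT family, IFIT2 and IFIT5 were measured. IFIT2 (chr10:89283694-89309271) was at a log2 RPKM of -2.70 and -1.84 with shNT, -0.43 and -0.70 with shCENPA1, and -1.92 and -1.89 with shCENPA2, from 73 to 280 reads. The shCENPA1 libraries lay above all others, and the shCENPA2 libraries lay between the shNT libraries. IFIT2 rose with shCENPA1 (log2 fold change 1.71 ± 0.32 SE, adjusted p = 0.0128), with a value of 0.37 with shCENPA2 (adjusted p = 0.477) and a difference between the shRNAs of -1.34 (adjusted p = 0.0935). The adjusted p with shCENPA1 was 0.0854 without shNT replicate 1, 0.103 without shCENPA1 replicate 1 and 0.108 without shCENPA1 replicate 2, and that of the difference between the shRNAs was 0.0407 and 0.0489 without shNT replicate 1 and replicate 2. Exons of IFIT2 overlap exons of LIPA on the opposite strand, and LIPA had log2 fold changes of 0.16 and 0.17 (adjusted p = 0.433 and 0.335). IFIT5, which has several ISRE core matches, was at -0.03 and 0.08, 0.23 and 0.30, and 0.04 and 0.32 (log2 fold changes 0.24 and 0.16, adjusted p = 0.487 and 0.591).

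The IFITM proteins hold back virus fusion at the plasma and endosomal membranes, and both measured members were lower with shCENPA2. IFITM2 (chr11:303655-309397) was at a log2 RPKM of 4.23 and 4.13 with shNT, 3.69 and 3.88 with shCENPA1, and 2.63 and 2.75 with shCENPA2, with no overlap among the 3 groups. It fell with shCENPA2 (log2 fold change -1.49 ± 0.11 SE, adjusted p = 2.6e-05), its value with shCENPA1 was -0.40 (adjusted p = 0.0545), and the difference between the shRNAs was -1.09 (adjusted p = 0.0018). The adjusted p with shCENPA1 was 0.0457 and 0.0463 without shCENPA2 replicate 1 and replicate 2. IFITM3 was at 4.04 and 4.08, 3.95 and 4.19, and 3.73 and 3.39 in the same order, and fell with shCENPA2 (log2 fold change -0.50 ± 0.13 SE, adjusted p = 0.0267) with a value of 0.01 with shCENPA1 (adjusted p = 0.97). Without shNT replicate 1, shNT replicate 2 or shCENPA2 replicate 2 the adjusted p of IFITM3 with shCENPA2 was 0.0782, 0.114 and 0.116, and the difference between the shRNAs had an adjusted p of 0.0418 without shCENPA2 replicate 1. IFITM2 and IFITM3 are near-identical neighbours on chromosome 11, so reads may be split between them.

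BST2 (chr19:17402939-17405630), or tetherin, which retains budding virus at the cell surface, followed the same order. Its log2 RPKM was 4.19 and 3.78 with shNT, 3.42 and 3.86 with shCENPA1, and 2.97 and 2.73 with shCENPA2, so that the shCENPA2 libraries lay below all others and the other groups overlapped. It fell with shCENPA2 (log2 fold change -1.13 ± 0.17 SE, adjusted p = 0.00197), and its values were -0.35 with shCENPA1 (adjusted p = 0.288) and -0.79 between the shRNAs (adjusted p = 0.0688). The adjusted p of that last difference was 0.0151 and 0.0132 without shNT replicate 1 and replicate 2.

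**Figure D3:**
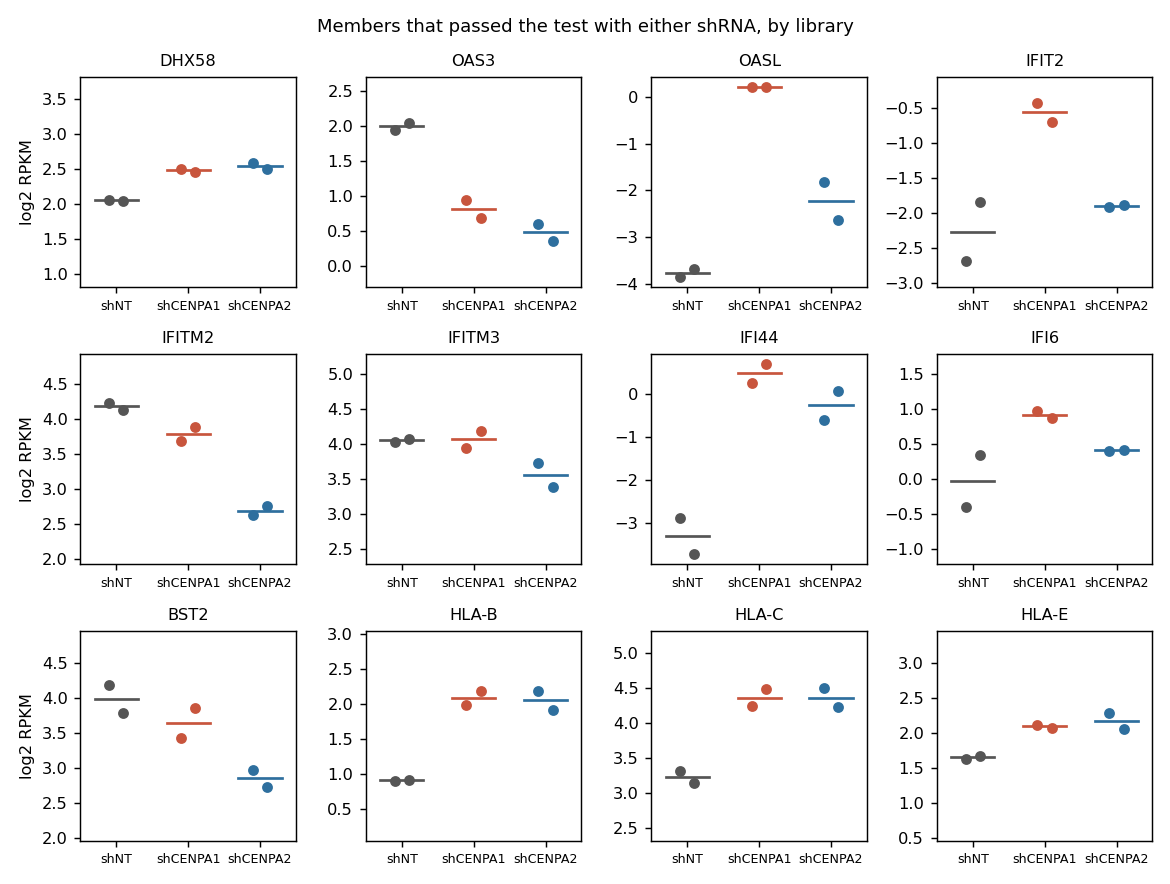
The log2 RPKM of each library (points) and each group mean (lines) is plotted for the 12 members with an adjusted p under 0.05 with either shRNA, each on its own scale. HLA-B and HLA-C have both knockdown groups at like levels above shNT. OASL and IFITM2 have 3 separate levels and passed the test between the shRNAs. The difference of OASL is a description, since a higher level in some libraries was a condition of its being in the table. Other members, such as OAS3 and IFI44, also have 3 groups without overlap. IFIT2, IFI44 and IFI6 have shNT libraries that lie apart from each other.

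Among the sensors of cytosolic RNA, DHX58 (LGP2), which tunes signalling by the other RIG-I-like receptors, was the one that passed. It was at a log2 RPKM of 2.06 and 2.05 with shNT, 2.51 and 2.46 with shCENPA1, and 2.59 and 2.51 with shCENPA2, with all knockdown libraries above shNT. The log2 fold changes were 0.43 and 0.49 (standard error 0.11, adjusted p = 0.0452 and 0.0119). With shCENPA1 the adjusted p was 0.257 and 0.384 without shNT replicate 1 and replicate 2 and 0.105 and 0.127 without shCENPA1 replicate 1 and replicate 2, and with shCENPA2 it was 0.0995 and 0.119 without shNT replicate 1 and replicate 2. IFIH1 (MDA5), which recognises long double-stranded RNA, was at 0.11 and 0.24, 0.23 and -0.14, and -0.26 and -0.26 (log2 fold changes -0.13 and -0.43, adjusted p = 0.741 and 0.164). The values of DDX58 (RIG-I), the receptor for RNA with a 5′ triphosphate, were -0.04 and -0.35 (adjusted p = 0.919 and 0.145), and those of TRIM25, the ubiquitin ligase that activates it, were -0.04 and -0.13 (adjusted p = 0.871 and 0.441).

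Of the 7 signalling factors measured, 0 passed in limma with either shRNA. By the same test 2.69% of all genes were higher and 4.45% lower with shCENPA1, and 8.05% and 10.5% with shCENPA2. At an unadjusted p under 0.05, 2 factors were higher and 1 lower with shCENPA1, and 3 higher and 1 lower with shCENPA2. The share of all genes at that unadjusted threshold is not given here. In limma-voom on the recovered reads 0 passed with shCENPA1 and, with shCENPA2, 1 was higher and 1 lower. IRF1, a transcription factor that drives antigen presentation genes, was at a log2 RPKM of -1.58 and -1.64 with shNT, -2.47 and -2.24 with shCENPA1, and -2.46 and -2.46 with shCENPA2, below shNT in all 4 knockdown libraries (log2 fold changes -0.75 and -0.85, adjusted p = 0.161 and 0.068). NMI, a partner of STAT proteins, was at -1.29 and -1.56, -1.33 and -0.84, and -0.73 and -0.42, above shNT in both shCENPA2 libraries (log2 fold changes 0.34 and 0.85, adjusted p = 0.492 and 0.0513). The log2 fold changes of STAT2, IRF2, IRF3, IRF7 and IFI35, which carry or amplify the signal, lay between 0.20 and 0.53 with shCENPA1 and between -0.28 and 0.37 with shCENPA2. With limma without the trend, IRF1 passed with both shRNAs (adjusted p = 0.0194 and 0.0062). NMI with shCENPA2 passed with lane 7 alone, with 0.1 or 1 added to the RPKM, with median-centred or quantile-normalized libraries, without the trend and in limma-voom (adjusted p = 0.0382 to 0.0496).

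ISG15, the ubiquitin-like protein that is among the most strongly induced interferon targets, was at a log2 RPKM of 6.11 and 5.85 with shNT, 5.95 and 6.20 with shCENPA1, and 6.02 and 5.63 with shCENPA2. The 3 groups overlapped (log2 fold changes 0.09 and -0.15, adjusted p = 0.75 and 0.517), and its standard error of 0.15 was as small as that of HLA-B. HERC5, the ligase that attaches ISG15 to new proteins, was at -0.17 and 0.04, -0.33 and -0.45, and -0.92 and -0.45 (log2 fold changes -0.33 and -0.62, adjusted p = 0.435 and 0.0868), with the adjusted p at 0.0342 with shCENPA2 without shCENPA2 replicate 2. HERC6 was at 0.56 and 0.48, 0.63 and 0.31, and 0.84 and 0.54 (log2 fold changes -0.05 and 0.17, adjusted p = 0.909 and 0.572). USP18, which removes ISG15 and blocks the interferon receptor, had values of -0.11 and 0.09 (adjusted p = 0.586 and 0.609).

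MX1, a dynamin-like GTPase that traps incoming viruses, was at a log2 RPKM of -1.34 and -1.22 with shNT, -1.23 and -1.40 with shCENPA1, and -1.41 and -1.64 with shCENPA2 (log2 fold changes -0.03 and -0.24, adjusted p = 0.954 and 0.536). Its exons overlap those of TMPRSS2 on the opposite strand, and TMPRSS2 had log2 fold changes of 0.18 and -0.79 (adjusted p = 0.471 and 0.00331). MX2, which was not tested, ranged from -3.69 to -2.90 over the 6 libraries. In the TRIM group, which holds cytosolic restriction factors, TRIM21, an antibody receptor, was at 1.32 and 1.38, 1.60 and 1.95, and 1.32 and 1.33 (log2 fold changes 0.43 and -0.02, adjusted p = 0.131 and 0.933). TRIM5, which recognises retroviral capsids, was at 1.97 and 2.16, 2.23 and 2.20, and 2.16 and 2.12 (log2 fold changes 0.15 and 0.07, adjusted p = 0.517 and 0.722). Of these 3 tested genes 0 passed in limma or limma-voom with either shRNA, and TRIM21 with shCENPA1 alone had an unadjusted p under 0.05.

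Of the other effectors, ISG20, an exonuclease of RNA, was at a log2 RPKM of 1.36 and 1.22 with shNT, 0.60 and 0.87 with shCENPA1, and 1.06 and 0.85 with shCENPA2. All 4 knockdown libraries were below both shNT libraries (log2 fold changes -0.56 and -0.34, adjusted p = 0.0786 and 0.187). In limma-voom ISG20 passed as lower with shCENPA1 (log2 fold change -0.55, adjusted p = 0.0281). EIF2AK2 (PKR), ADAR and TDRD7, which sense, edit or restrict RNA of viruses, had log2 fold changes between -0.23 and 0.22 with either shRNA. In the group of PARP9, PARP12, PARP14 and DTX3L, which modify proteins with ADP-ribose or ubiquitin, 0 of 4 passed in limma or limma-voom, and 0 had an unadjusted p under 0.05 against shNT. PARP14 was at 1.20 and 1.32, 1.65 and 1.33, and 1.25 and 1.28 (log2 fold changes 0.23 and 0.01, adjusted p = 0.414 and 0.981), and DTX3L was at 3.06 and 3.09, 2.93 and 2.79, and 2.66 and 2.98 (log2 fold changes -0.22 and -0.26, adjusted p = 0.36 and 0.198). DTX3L with shCENPA2 had an adjusted p of 0.047 without shCENPA2 replicate 2. PARP9 and DTX3L lie head to head and share 1 ISRE core match and some exon sequence on opposite strands.

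Members with an ISRE core match were found among those that passed as higher, those that passed as lower and those that did not pass. Of the 22 matched members tested, 2 were higher (9.09%) and 1 was lower (4.55%) with shCENPA1, where 2.69% and 4.45% of all genes were. The 2 higher members were IFI44 and IFI6. IFI44 would not have been in the table at its shNT level, and IFI6 reached 1 CPM in 1 of the 4 shNT runs. With shCENPA2 1 was higher (4.55%) and 3 were lower (13.6%), where 8.05% and 10.5% of all genes were. The median log2 fold changes of the 22 were 0.10 and -0.15. Of the 10 measured members whose promoter had no match, 2 were higher with each shRNA, which were HLA-B and HLA-C, and 0 were lower in limma, while 1 and 2 were lower with shCENPA1 and shCENPA2 at an unadjusted p under 0.05 and 0 and 1 in limma-voom. The promoters printed above for IFI44, which rose, and for OAS3 and IFITM3, which were lower with shCENPA2, each hold a match close to the start. DHX58, OASL, IFIT2, IFITM2 and HLA-E had no promoter in the RefSeq table and are not in these counts.

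**Figure D4:**
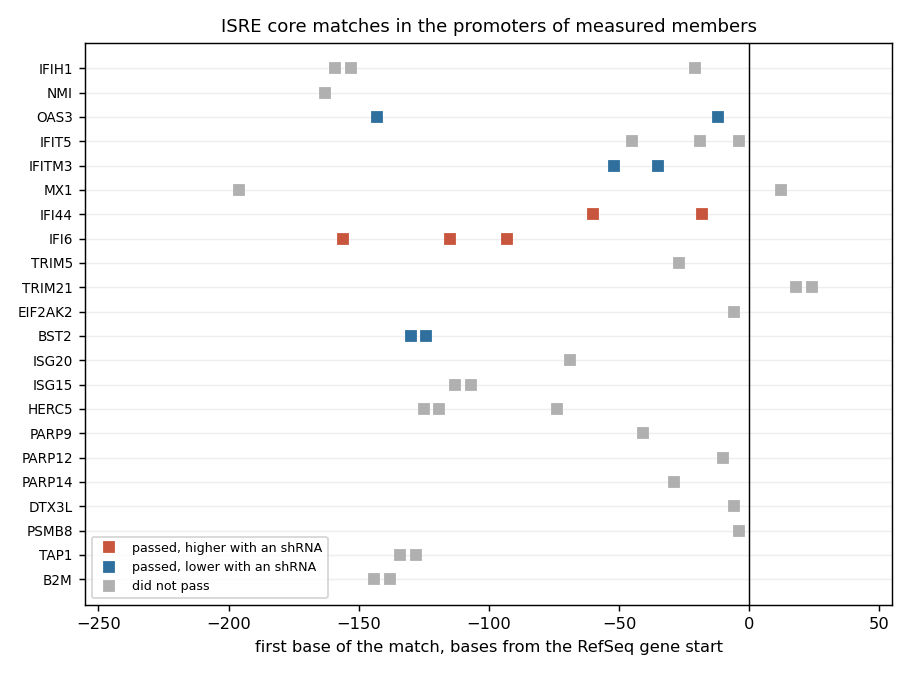
Each square is 1 match of the ISRE core in a RefSeq promoter, placed by its first base in bases from the gene start (0 on the axis), for the 22 measured members with a match. Red members passed the test as higher with either shRNA, blue as lower, and grey members did not pass. The red squares, from -156 to -18, and the blue squares, from -143 to -12, lie among the grey ones.

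Between the shRNAs, 0 of the 41 members were higher and 2 were lower with shCENPA2 than with shCENPA1 at an adjusted p under 0.05 in limma, against 0.39% and 1.03% of all genes. At an unadjusted p under 0.05, 0 members were higher and 10 lower, and in limma-voom 0 were higher and 4 lower. Of the 41 differences 31 were negative, with a median of -0.21, beside -0.003 for all genes. The share of all genes at the unadjusted threshold is not given here. OASL and IFITM2 were the members that passed in limma. OASL reached 1 CPM in 0 of the 4 shNT runs and in 5 of all 12 runs. A higher level in some libraries was thus a condition of its being in the table, and its difference is a description. The other 39 members had differences between -1.34 and 0.51 on the log2 scale. With limma-voom on the recovered reads 4 members differed between the shRNAs, with IFIT2 (adjusted p = 0.0327) and BST2 (adjusted p = 0.0369) added.

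The rest of the pathway was read from lists of 118 further genes, of which 64 were tested. In limma 6 of the 64 were higher (9.4%) and 2 lower (3.1%) with shCENPA1, where 2.69% and 4.45% of all genes were. With shCENPA2 11 were higher (17.2%) and 6 lower (9.4%), where 8.05% and 10.5% of all genes were. The higher genes include SOCS3, whose place in the table required a higher level in libraries other than shNT, as given below. The counts are a description and not support for a rise of the pathway. None of the 9 interferon ligands listed had a row, and they were not analysed here. With shCENPA1 0 of the 9 receptor chains and kinases passed in limma, 0 in limma-voom and 0 at an unadjusted p under 0.05. Their log2 fold changes with shCENPA1 were -0.25 to 0.14. With shCENPA2 1 was lower in limma (11.1%, where 10.5% of all genes were). That gene was IFNAR2, a chain of the type I interferon receptor, at a log2 RPKM of 1.63 and 1.60 with shNT, 1.49 and 1.37 with shCENPA1, and 1.02 and 1.16 with shCENPA2 (log2 fold changes -0.18 and -0.53, adjusted p = 0.475 and 0.0261). IFNAR1, the other chain, had values of -0.25 and -0.17 (adjusted p = 0.238 and 0.345). IFNGR1 and IFNGR2, the interferon gamma receptor, had values of 0.14 and 0.13, and 0.13 and -0.003, and IFNLR1 and IL10RB, the interferon lambda receptor, had values of 0.06 and 0.05, and -0.03 and -0.17. The kinases JAK1, JAK2 and TYK2 had values of -0.07 and -0.03, -0.22 and -0.02, and 0.14 and 0.06.

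SOCS3, a feedback inhibitor of JAK kinases downstream of several cytokines, was higher with both shRNAs, at -2.53 and -2.41 with shNT, -1.40 and -1.05 with shCENPA1, and -0.77 and -1.32 with shCENPA2. It reached 1 CPM in 0 of the 4 shNT runs, so a higher level in other libraries was a condition of its being in the table and its difference from shNT is a description. Its log2 fold changes were 1.25 and 1.43 (adjusted p = 0.0318 and 0.00834), and with shCENPA1 the adjusted p was 0.146 and 0.124 without shNT replicate 1 and replicate 2 and 0.0864 and 0.237 without shCENPA1 replicate 1 and replicate 2. With 1 added to the RPKM they were 0.28 and 0.34 (adjusted p = 0.067 and 0.0163). In limma-voom the adjusted p of SOCS3 with shCENPA1 was 0.0569.

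RSAD2 (viperin), a radical SAM enzyme that makes an antiviral nucleotide, fell with shCENPA2. It was at a log2 RPKM of -0.10 and -0.02 with shNT, -0.75 and -1.01 with shCENPA1, and -1.14 and -1.49 with shCENPA2 (log2 fold changes -0.82 and -1.25, adjusted p = 0.0653 and 0.00484). The adjusted p with shCENPA1 was 0.0358 and 0.035 without shCENPA2 replicate 1 and replicate 2. RNASEH2A, the catalytic subunit of the nuclease that removes ribonucleotides from DNA, fell with both shRNAs, from 4.15 and 4.04 with shNT to 3.08 and 3.28 with shCENPA1, and 3.07 and 2.65 with shCENPA2 (log2 fold changes -0.92 and -1.24, adjusted p = 0.00428 and 0.000365), and the first had an adjusted p of 0.0635 without shCENPA1 replicate 1.

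LAMP3 and SLFN5 differed between the shRNAs. LAMP3, a lysosomal membrane protein, was at a log2 RPKM of 0.92 and 1.08 with shNT, 2.32 and 2.30 with shCENPA1, and 3.28 and 3.36 with shCENPA2, so that the 3 groups stood apart (log2 fold changes 1.31 and 2.32, adjusted p = 0.000266 and 6.3e-06). SLFN5, of the Schlafen family, was at -0.86 and -1.13 with shNT, -0.48 and -0.93 with shCENPA1, and 1.00 and 1.23 with shCENPA2. Only its shCENPA2 libraries stood apart from shNT (log2 fold changes 0.29 and 2.11, adjusted p = 0.505 and 0.000243). The 9 further antigen presentation genes tested included TAPBP, ERAP1 and CALR. With shCENPA1 0 of them passed in limma or limma-voom, and 1 had an unadjusted p under 0.05. With shCENPA2 1 was higher in limma (11.1%, where 8.05% of all genes were) and 3 were in limma-voom. The limma call was TAPBPL, an editor of class I peptides (log2 fold change 0.62, adjusted p = 0.0441, chosen after its value was seen). Of 7 NF-kB targets and cytokines tested, 0 passed with shCENPA1 in limma, in limma-voom or at an unadjusted p under 0.05, and 2 were lower with shCENPA2 (28.6%, where 10.5% of all genes were lower).

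**Figure D5:**
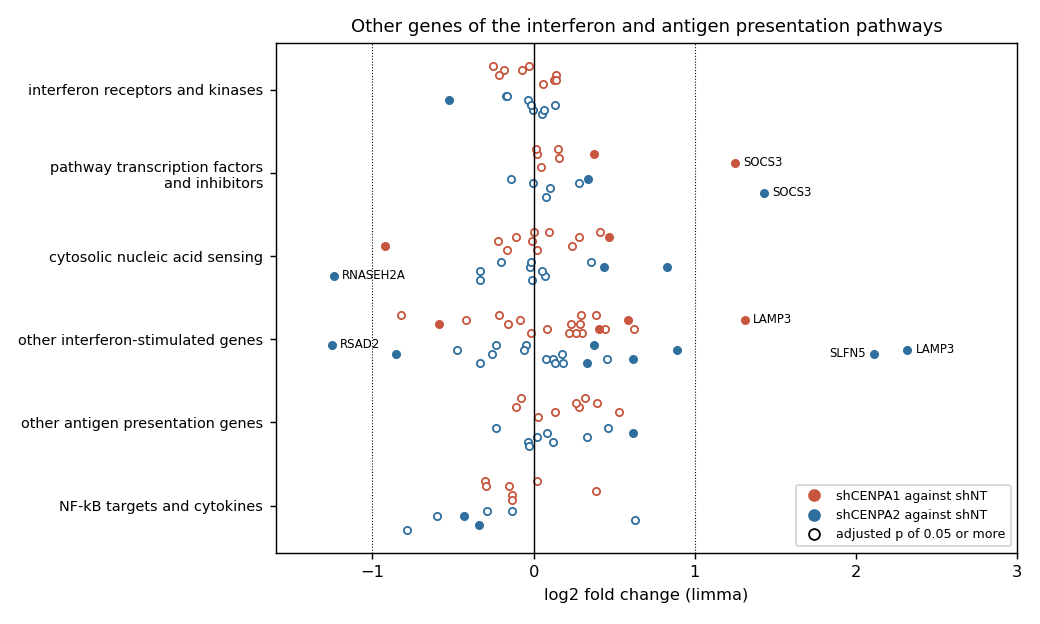
Each point is the log2 fold change of 1 gene against shNT, for the 64 tested genes of 6 lists, with shCENPA1 in red and shCENPA2 in blue, and filled points had an adjusted p under 0.05. Receptors and kinases lie between -0.53 and 0.14, and the genes past the dotted 2-fold lines with a filled point are named.

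Markers of stromal cells were set beside these values. Of 8 fibroblast and endothelial markers COL1A1, DCN and LUM had a row, with a summed level of 3.68 to 3.95 RPKM with shNT, 3.55 to 3.57 with shCENPA1 and 5.86 to 5.98 with shCENPA2. DCN was higher with both shRNAs (log2 fold changes 1.93 and 1.48, adjusted p = 0.00271 and 0.0053). LUM was higher with shCENPA2, with a value of -0.41 with shCENPA1 (log2 fold change 0.74 with shCENPA2, adjusted p = 0.0967 with shCENPA1 and 0.00386 with shCENPA2), and COL1A1 had values of 0.09 and 0.12 (adjusted p = 0.838 and 0.735). The part of these levels in the changes of the interferon-stimulated and antigen presentation genes was not tested.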

How the data were processed

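The authors deposited log2 RPKM (reads scaled to gene length and library size, on a log2 scale with a small prior count) for 14828 genes in 12 runs of 22Rv1 mRNA. Per the paper's methods and the submitters' processing notes, reads were trimmed with Trim Galore, aligned to hg38 with STAR and counted with HTSeq, and edgeR was used by the authors. Versions and the strand setting of the counting were not given in the sources used here. The libraries were made with a stranded kit.

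Lanes 7 and 8 of a library were averaged, and genes with a mean of at least -3 were fitted in limma 3.58.1 (R 4.3.3; lmFit, eBayes with trend), with 6 libraries of 3 groups in 1 fit. Whole reads were recovered from the deposited log2 steps for 14828 of 14828 genes (100.0% of values within 0.001 reads). They served for depth, the read counts and CPM given above, the comparison of lanes and libraries, and a limma-voom alternative. The lanes of a library differed by little more than counting error (chi-square per gene 1.23 to 1.31) and libraries of a group by far more (26.5 to 80.1). An exact permutation test of 2 against 2 libraries cannot go below p = 0.333, so none was used. Counts at an unadjusted p under 0.05 are a description, given without the share of all genes at that threshold.

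The members and lists were chosen with earlier results of these data known. Per-library values are given for members called 2-fold changed with either shRNA and for the 2 members of each functional group with the largest mean change. Pathway genes are named where 2-fold changed, and receptors and kinases in any case. Some genes of the pathway and marker lists are not reported here. Members outside this rule that are named with values, and the leading overlap partners, were chosen after their values were seen. RefSeq promoters matched 46 of 58 listed symbols, and GENCODE 44 gave positions and exon overlaps. The study's other data were not used here.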

Additional observations from a re-analysis of the deposited data

Results flagged for a closer look

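Between shCENPA2 and shCENPA1, 4 genes of the lists differed by the test of the difference itself (limma, adjusted p under 0.05). OASL was lower with shCENPA2 than with shCENPA1 by a log2 difference of -2.44 (adjusted p = 0.00809), and IFITM2 by -1.09 (adjusted p = 0.0018). The difference of OASL is a description, since the gene reached 1 CPM in 5 of the 12 runs and in 0 of the 4 shNT runs. LAMP3 was higher with shCENPA2 by 1.01 (adjusted p = 0.00417), with 0.0568 and 0.081 without shCENPA1 replicate 1 and replicate 2. SLFN5 was higher with shCENPA2 by 1.82 (adjusted p = 0.00566), with 0.101 without shCENPA1 replicate 2. The level of CENPA also differed between the shRNAs (-0.98, adjusted p = 0.0209), and the part of that difference in these 4 was not tested. Groups of 2 libraries were too small to look for outlying samples.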

How the results depend on the processing

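Of 30 changes of named genes that passed the test, 18 passed under each of the 18 alternatives that could be run for them, 12 lost the call under 1 or more, and 0 changed direction. With genes of a mean log2 RPKM of at least 0 only, 4 members were higher with shCENPA1 (7 in the main analysis) and 1 differed between the shRNAs (2 in the main analysis). Leaving out 1 library each gave 4 to 8 members higher and 1 to 2 lower with shCENPA1, 4 to 7 higher and 3 to 6 lower with shCENPA2, and 1 to 4 that differed between the shRNAs. With lane 7 alone, 1 added to the RPKM, limma without the trend, 2 groups per fit or limma-voom, 2 members were lower with shCENPA1 instead of 1. With 2 groups per fit and with limma-voom, 4 members differed between the shRNAs, and 3 did with lane 7 alone or with 1 added.

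The median log2 fold change of the members with shCENPA1, 0.15, was 0.17 with lane 7, 0.11 with lane 8, 0.13 with genes of a mean of at least 0, 0.093 with 1 added, 0.17 with median-centred and 0.18 with quantile-normalized libraries, and 0.10 to 0.15 without 1 library. With shCENPA2 it was -0.087 with lane 7 and -0.074 with all deposited genes, and -0.06 to 0.02 without 1 library, so it took either sign. No scaling moved the median of all genes by 0.1.

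With the replicate block 6 members were higher with shCENPA1 and 6 with shCENPA2, 1 and 4 were lower, and 2 differed between the shRNAs. DHX58 (adjusted p = 0.0841) and SOCS3 (adjusted p = 0.0535) lost their calls with shCENPA1 under the block. Deviations of like-numbered libraries correlated at -0.064, -0.095 and -0.145, so no common shift of like-numbered libraries was seen. The labels do not say whether like-numbered libraries were prepared together, and these correlations cannot tell. The deposited values lower the folds of genes at few reads, such as OASL and IFI44, and 1 added to the RPKM lowers them further. Depth is a limit for OASL, IFIT2, IFI44, IFI6, PSMB8 and SOCS3, which had 13 to 73 reads in their lowest library.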
